A study of Mus musculus with 9 samples.

Results

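The immunoproteasome and the machinery that loads peptides onto class I molecules of the major histocompatibility complex (MHC) were followed through 10 genes in mouse spleen plasma cells. They are the catalytic immunoproteasome subunits Psmb8, Psmb9 and Psmb10, the subunits Psme1 and Psme2 of the PA28 activator, the peptide transporter subunits Tap1 and Tap2, the loading factor Tapbp, the class I light chain B2m and the transactivator Nlrc5. The genes were chosen by name, and all 10 were found among the 46958 genes counted and were among the 14199 genes with enough counts to be tested. RNA was sequenced from plasma cells taken from the spleen with magnetic beads that bind CD138, the syndecan on the plasma cell surface. The 9 libraries came from 9 mice aged 3 months that had not been immunized, with 3 wild-type (WT), 3 DH-LMP2A and 3 kFRA mice. All were of 1 mixed background of C57/BL6, 129/SV and BALB/c, and the submitters state that some other cells remained after purification. The series title concerns light chain deposition disease (LCDD), in which a monoclonal immunoglobulin light chain is deposited in tissues. The labels do not describe the alleles. From what is known of these lines, DH-LMP2A mice carry the Epstein-Barr virus protein LMP2A in place of a functional heavy chain locus, so that B cells mature without a heavy chain, and kFRA mice carry in addition the kappa light chain of an LCDD patient at the mouse kappa locus. On that account DH-LMP2A shares the missing heavy chain with kFRA, and the kFRA against DH-LMP2A comparison concerns the light chain.

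As background, proteasomes degrade cytosolic and misfolded secretory proteins, and interferon gamma replaces their catalytic subunits with the immunoproteasome forms. The resulting peptides are pumped into the endoplasmic reticulum by the TAP transporter, held near it by tapasin (Tapbp) and bound by a class I heavy chain paired with beta-2 microglobulin (B2m). NLRC5, which works with RFX and NF-Y proteins at class I promoters, drives many of these genes, and its own gene is induced by interferon gamma.

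The libraries held 15449026 to 21558128 counts, and 3 counts, taken as the floor of detection, stood for 0.127 to 0.205 CPM, counts scaled to a common library total, after scaling by the trimmed mean of M values. Such floors cover counting error only, and all 10 genes lay far above them. The sums of 8 plasma cell markers were 18890 to 24141 CPM in WT, 34147 to 47160 in DH-LMP2A and 20401 to 32064 in kFRA, and those of 8 B cell markers were 540 to 1104 CPM over the 9 libraries. Most of the plasma cell sum was Jchain, at 15678 to 19912 CPM in WT, 27010 to 38647 in DH-LMP2A and 14680 to 25428 in kFRA. Of the 8 plasma cell markers, 7 had positive log2 fold changes in each comparison with WT. Tnfrsf17 was lower in both, by log2 fold changes of -1.69 in kFRA and -1.16 in DH-LMP2A (edgeR adjusted p = 0.00253 and 0.0159). Macrophage and monocyte markers summed to 3638 to 6394 CPM in WT, 1103 to 3376 in DH-LMP2A and 2160 to 3448 in kFRA, and no marker list was at 0 in any library. Erythroid markers (7 found) summed to 47.0 to 313 CPM in WT, 2294 to 12132 for DH-LMP2A and 1039 to 2465 for kFRA, and granulocyte markers to 249.3 to 849, 21.3 to 244 and 8.41 to 24.8 in the same order. Among kFRA libraries, replicate 2 was the lowest for 8 of the 10 genes in CPM scaled this way. Its scaling factor was 1.22, against 0.947 and 0.895 for kFRA replicates 1 and 3, and a larger factor lowers the CPM. The order depends on that scaling: the unscaled counts of Tapbp were 4045, 5724 and 5130 in kFRA replicates 1 to 3. Results that rest on kFRA replicate 2 are given with and without it. The 3 comparisons share libraries in pairs and are therefore not independent of each other.

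Across the 3 genotypes, 2 of the 10 genes stood out. Tapbp was 2.04-fold higher in DH-LMP2A than in WT, and Nlrc5 was lower in both DH-LMP2A and kFRA than in WT, at 0.497 and 0.558 times the WT mean. In kFRA against WT, 1 of 10 genes passed the threshold (Nlrc5, lower; edgeR quasi-likelihood test, Benjamini-Hochberg adjusted over all genes tested, adjusted p under 0.05), and over all genes the share that passed was 17.8%, with 6.68% higher and 11.1% lower. In DH-LMP2A against WT, 2 of 10 passed (Tapbp higher, Nlrc5 lower), against 12.4% of all genes, 5.07% higher and 7.3% lower. In kFRA against DH-LMP2A, 1 of 10 passed (Tapbp, lower), against 5.02% of all genes, 1.73% higher and 3.3% lower. The median log2 fold change of the 10 genes was 0.10 in kFRA against WT, -0.19 in DH-LMP2A against WT and 0.27 in kFRA against DH-LMP2A. The same medians over all genes tested were -0.04, -0.01 and -0.0049. With 10 genes these shares are a description, and nothing particular to the group is read from them.

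**Figure D1:**
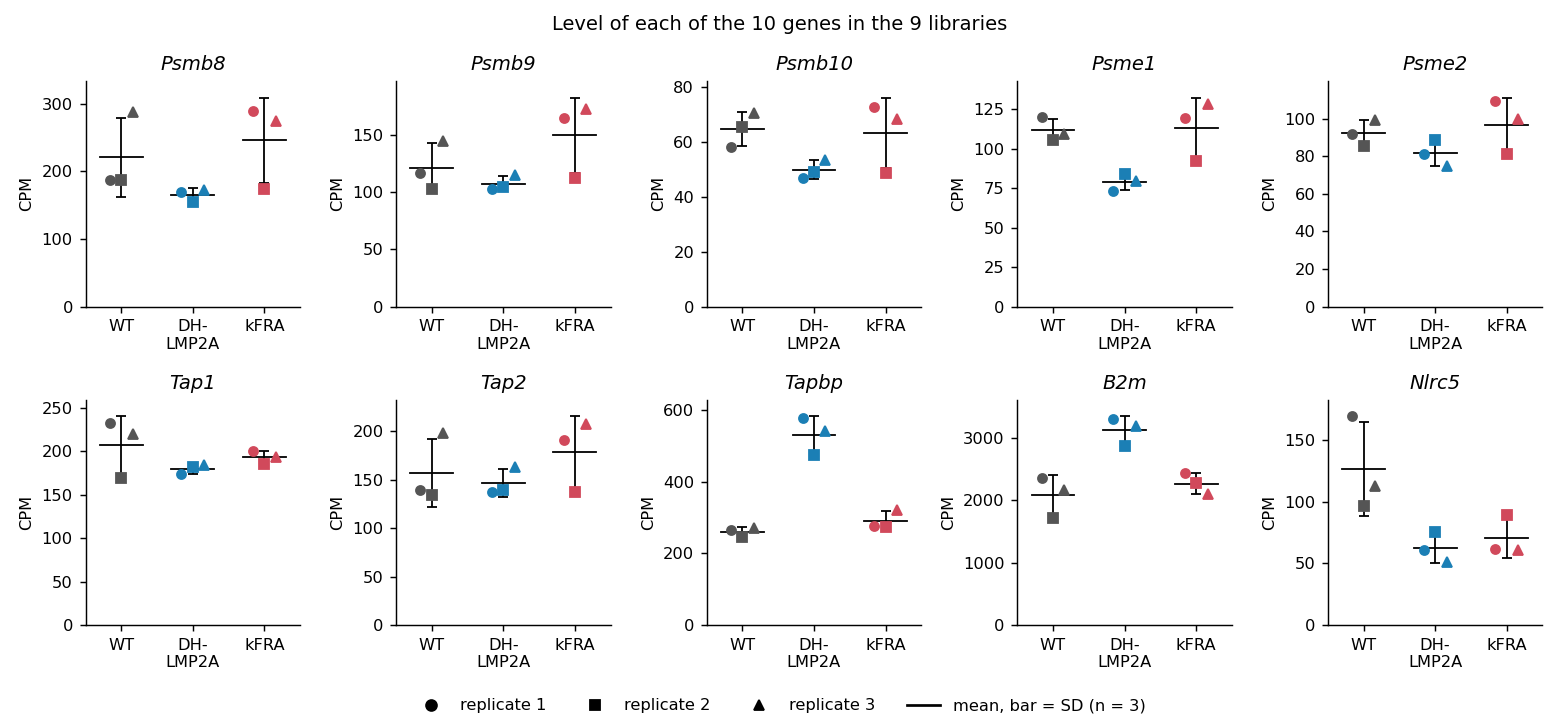
The level of each of the 10 genes in CPM (vertical axes, from 0) is plotted for the WT, DH-LMP2A and kFRA libraries, with the mean as a line and the SD as a bar (n = 3 each). The 3 DH-LMP2A libraries of Tapbp (475 to 576 CPM) lie above all others, and the 3 WT libraries of Nlrc5 (96.6 to 169 CPM) lie above the DH-LMP2A and kFRA libraries.

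**Figure D2:**
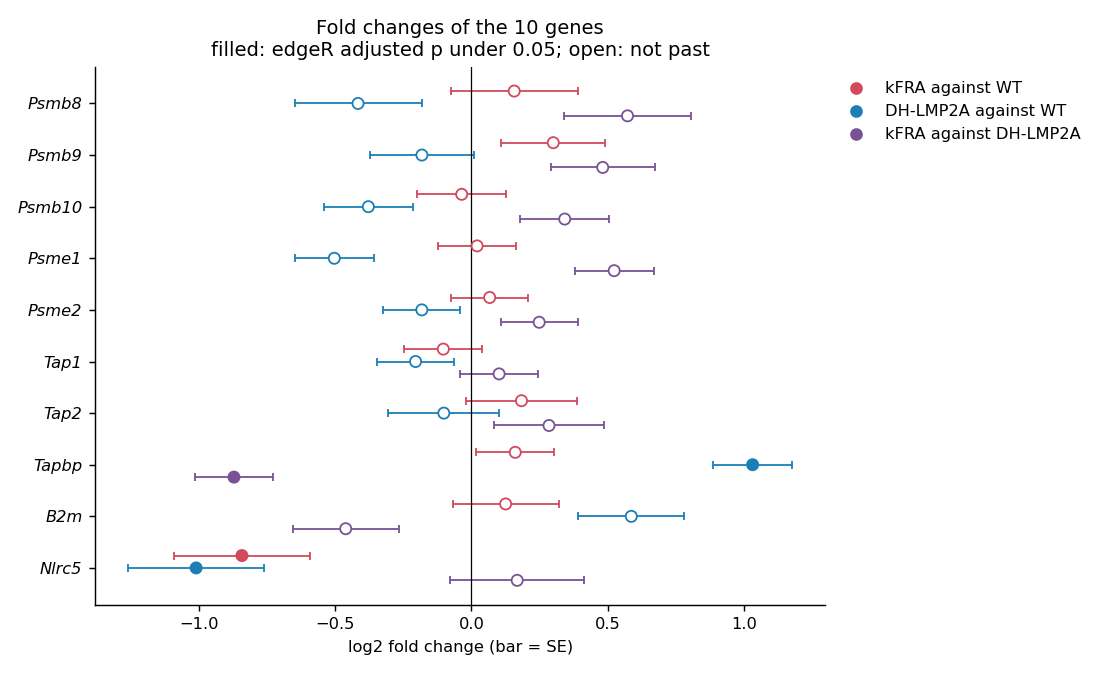
The log2 fold change of each of the 10 genes is plotted in the 3 comparisons, with its standard error as a bar and filled points past the adjusted p-value of 0.05. Of 30 points, 4 are filled: Tapbp in DH-LMP2A against WT and in kFRA against DH-LMP2A, and Nlrc5 in both comparisons with WT.

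The levels of the genes spanned a wide range. Per kilobase of merged exon, B2m was the highest in each genotype, at 2419 CPM per kilobase in WT mice, 3633 in DH-LMP2A and 2639 in kFRA, and Nlrc5 the lowest, at 16.5, 8.21 and 9.22. In WT, Psmb8 (80.7 CPM per kilobase) and Tapbp (78.8) came next, their libraries overlapping. Below them, Psme2, Psmb10, Psme1, Tap2, Tap1 and Psmb9 lay between 52.3 and 33.2, each overlapping its neighbour in that order. In DH-LMP2A, Tapbp took a place apart, at 161 CPM per kilobase against 60.5 for Psmb8, with no overlap. In kFRA, Psmb8 (90.0) and Tapbp (88.1) again overlapped. B2m made up 60.3% of the summed CPM of the 10 genes in WT mice, 69.0% in DH-LMP2A and 61.9% in kFRA. The coefficient of variation over the 9 libraries ran from 10.8% for Tap1 to 42.8% for Nlrc5.

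The catalytic subunits Psmb8 (LMP7), Psmb9 (LMP2) and Psmb10 (MECL-1) carry the cleavage activity of the immunoproteasome. Psmb8 (chr17:34197721-34201454) measured 187, 187 and 288 CPM in WT, 169, 155 and 172 in DH-LMP2A and 290, 174 and 275 in kFRA, by replicate. The DH-LMP2A libraries were the lowest, separate from both other genotypes, while WT and kFRA overlapped and kFRA replicate 2 lay beside DH-LMP2A. The log2 fold change was 0.57 (SE 0.233) in kFRA against DH-LMP2A, which did not pass (edgeR adjusted p = 0.192), and -0.42 (SE 0.233, adjusted p = 0.301) in DH-LMP2A against WT. Psmb9 (chr17:34181988-34187764) averaged 121 ± 21.7 CPM in WT mice, 107 ± 6.55 in DH-LMP2A and 150 ± 32.9 in kFRA (SD, n = 3). Its libraries overlapped in all 3 comparisons, and none passed, the smallest edgeR adjusted p being 0.182 in kFRA against DH-LMP2A. Psmb10 (chr8:105935728-105938392) averaged 64.8 ± 6.20 CPM in WT mice, 49.8 ± 3.38 in DH-LMP2A and 63.2 ± 12.9 in kFRA (SD, n = 3). The DH-LMP2A and WT libraries did not overlap, with a log2 fold change of -0.38 (SE 0.163) that missed the threshold (edgeR adjusted p = 0.175).

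Psmb8, Psmb9 and Psmb10 take the places of Psmb5, Psmb6 and Psmb7 of the constitutive proteasome. None of these counterparts passed in any of the 3 comparisons with all 9 libraries. Without kFRA replicate 2, Psmb5 (log2 fold change 1.02, edgeR adjusted p = 0.00907) and Psmb6 (0.59, adjusted p = 0.0214) were higher in kFRA than in DH-LMP2A, and Psmb6 also than in WT (0.53, adjusted p = 0.0201). That fit called 3299 genes against DH-LMP2A, 51.4% of them higher, and 5632 against WT, 48.4% of them higher. The ratio of each immunoproteasome subunit to its counterpart, in counts per kilobase within a library, does not depend on the scaling of libraries. The Psmb8 to Psmb5 ratio was 1.65 ± 0.144 in WT mice, 1.84 ± 0.0812 in DH-LMP2A and 1.68 ± 0.163 in kFRA (SD, n = 3). The 3 genotypes overlapped in it. The Psmb9 to Psmb6 ratio was 0.849 ± 0.0902 in WT mice, 0.781 ± 0.0223 in DH-LMP2A and 0.870 ± 0.0338 in kFRA (SD, n = 3). It was higher in all 3 kFRA libraries (0.846, 0.856 and 0.909) than in all 3 of DH-LMP2A (0.759, 0.780 and 0.804), a log2 difference of 0.16 (exact permutation test, 2-sided, p = 0.1).

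The Psmb10 to Psmb7 ratio was 3.29, 3.33 and 3.18 in the WT libraries, 2.18, 2.51 and 2.63 in DH-LMP2A and 3.21, 2.59 and 3.31 in kFRA. All 3 DH-LMP2A libraries lay below the 3 of WT, a log2 difference of -0.42 (exact permutation test, 2-sided, p = 0.1), and kFRA replicate 2 lay among the DH-LMP2A values. A p-value of 0.1 is the smallest that 3 against 3 libraries allow, and over the 9 tests on these ratios the Benjamini-Hochberg adjusted p was 0.36 or more. With 3 mice a genotype this test could not pass the threshold for any ratio. It therefore does not decide whether immunoproteasome and constitutive transcripts shifted against each other. In log2 units, the pooled SD was 0.10 for the Psmb10 to Psmb7 difference of -0.42 in DH-LMP2A against WT. It was 0.049 for the Psmb9 to Psmb6 difference of 0.16 in kFRA against DH-LMP2A. In every other comparison of these ratios the libraries overlapped.

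**Figure D3:**
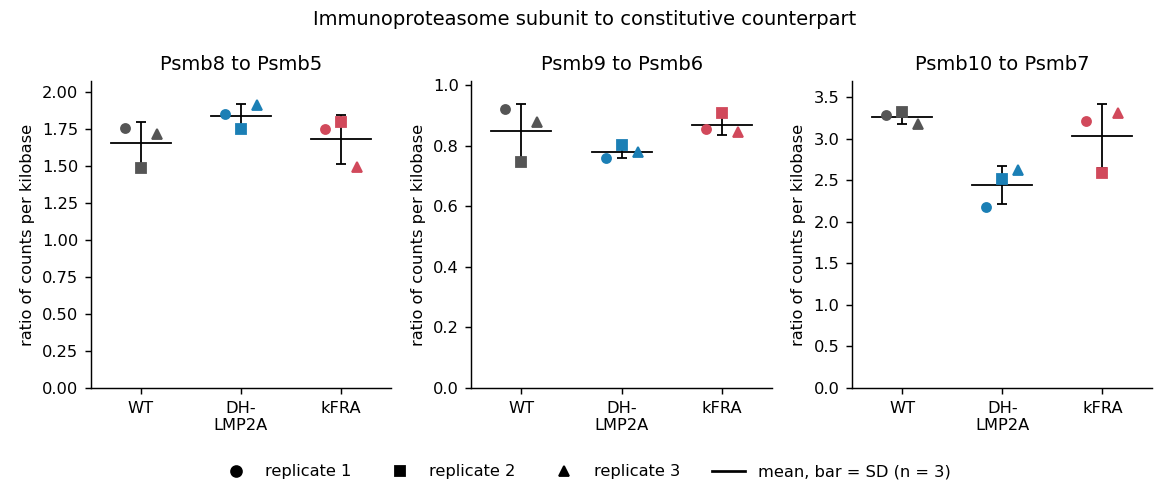
The ratio of counts per kilobase of Psmb8 to Psmb5, Psmb9 to Psmb6 and Psmb10 to Psmb7 (vertical axes, no unit, from 0) is plotted per library, with the mean as a line and the SD as a bar (n = 3 per genotype). Most ranges overlap. The DH-LMP2A libraries of Psmb10 to Psmb7 (2.18 to 2.63) lie below those of WT (3.18 to 3.33).

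Psme1 and Psme2 encode PA28 alpha and beta, which form a ring that opens the proteasome's gate. Psme1 (chr14:55578123-55581529) measured 120, 106 and 109 CPM in WT, 73.2, 83.8 and 79.4 in DH-LMP2A and 119, 92.2 and 128 in kFRA. All 3 DH-LMP2A libraries were below all 6 others, and WT and kFRA overlapped. Its log2 fold change of -0.50 (SE 0.145) in DH-LMP2A against WT lay just short of the threshold (edgeR adjusted p = 0.0521), as did that of 0.52 (SE 0.145, adjusted p = 0.0762) in kFRA against DH-LMP2A. Psme2 (chr14:55587441-55591113) lay between 74.7 and 109 CPM, with overlap in every comparison and log2 fold changes of 0.07, -0.18 and 0.25 in kFRA against WT, DH-LMP2A against WT and kFRA against DH-LMP2A. Exons of Psme1 overlap those of Emc9 in the annotation, and the strand setting of the counting is not given, so its level is less certain than that of Psme2.

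The 5 proteasome genes kept together across the libraries. Pearson's r of log2 CPM over the 9 libraries lay between 0.73 and 0.93 for the 10 pairs among Psmb8, Psmb9, Psmb10, Psme1 and Psme2, a description in which the points share libraries and scaling. The pattern was not theirs alone: Tap2 was at 0.94 with Psmb9 and 0.90 with Psmb8. With Psmb10, Psme2 and Psme1 it was at 0.74, 0.68 and 0.56. In all 5 genes kFRA replicate 2 was the lowest kFRA library in scaled CPM. Without that library, all 5 were higher in kFRA than in DH-LMP2A by the same edgeR test, among 3299 genes called in that comparison without it. Of those 3299 genes, 51.4% were higher in kFRA. With all 9 libraries 713 genes were called there, 34.4% of them higher. The log2 fold changes were then 0.83 for Psmb8 (adjusted p = 0.0256), 0.72 for Psmb9 (0.0184), 0.56 for Psmb10 (0.0151), 0.72 for Psme1 (0.00621) and 0.42 for Psme2 (0.0435). kFRA against WT without it called Psmb9 higher, at 0.54 (edgeR adjusted p = 0.0325), among 5632 genes called, 48.4% of them higher. The choice of 2 or 3 kFRA libraries therefore sets whether the proteasome genes pass in kFRA against DH-LMP2A. kFRA replicate 2 also had the highest macrophage and monocyte marker sum of the kFRA libraries (3448 CPM against 2160 and 2215). Its plasma cell marker sum was the lowest of them (20401 CPM against 30483 and 32064), of which Jchain was 14680 CPM against 23245 and 25428. The part of these differences in the proteasome values was not tested. In bulk samples, fewer cells of a type and less RNA per cell cannot be told apart.

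Among 8 other tested activator, inhibitor and assembly genes of the proteasome, none passed in any of the 3 comparisons, and their median log2 fold changes were 0.21 in kFRA against WT, -0.02 in DH-LMP2A against WT and 0.24 in kFRA against DH-LMP2A. Without kFRA replicate 2, 4 of them (the assembly factors Pomp, Psmg1, Psmg2 and Psmg3) were higher in kFRA than in DH-LMP2A, and the same 4 than in WT, where Psme4 was lower (log2 fold change -0.44, edgeR adjusted p = 0.037). All genes called in that fit numbered 3299 in kFRA against DH-LMP2A, 51.4% of them higher, and 5632 in kFRA against WT, 48.4% of them higher.

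Tap1 and Tap2 form the transporter that moves peptides into the endoplasmic reticulum. Tap1 (chr17:34187553-34197225) measured 233, 170 and 220 CPM in WT, 174, 182 and 184 in DH-LMP2A and 200, 185 and 194 in kFRA. The libraries of DH-LMP2A and kFRA lay inside the WT range, and the log2 fold changes were -0.10 (SE 0.143) in kFRA against WT and -0.20 (SE 0.143) in DH-LMP2A against WT. Tap2 (chr17:34203527-34216321) averaged 157 ± 35.3 CPM in WT mice, 147 ± 14.4 in DH-LMP2A and 179 ± 37.0 in kFRA (SD, n = 3), with overlap in every comparison. The edgeR adjusted p of the 2 transporter genes was 0.418 or more in every comparison. Tap1 shares its start region with Psmb9, which is read in the opposite direction. Their start sites lie 226 bases apart in the RefSeq annotation, and the 225 bases between them (chr17:34187331-34187555, GRCm38.p6, Tap1 strand) are shown because 1 stretch serves a transporter gene and a proteasome gene. Capitals mark TGACG, the half-site bound by CREB and ATF proteins, and CCAAT, the letters bound by NF-Y.

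Tap1 and Psmb9: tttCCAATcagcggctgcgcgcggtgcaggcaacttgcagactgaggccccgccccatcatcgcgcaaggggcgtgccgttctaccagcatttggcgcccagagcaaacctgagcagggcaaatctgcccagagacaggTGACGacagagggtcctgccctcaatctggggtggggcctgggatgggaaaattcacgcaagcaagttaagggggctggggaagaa

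The log2 fold changes of the pair differed in sign in kFRA against WT, at -0.10 for Tap1 and 0.30 for Psmb9, neither past the threshold. Part of each gene's exons overlaps the other on the opposite strand, so their counts may not be fully separate.

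Tapbp encodes tapasin, which ties the transporter to class I molecules and helps to select peptides. Tapbp (chr17:33915899-33929288) measured 265, 244 and 270.1 CPM in WT, 576, 475 and 542 in DH-LMP2A and 277, 272 and 322 in kFRA. Every DH-LMP2A library was above every other library, and the kFRA libraries lay just above those of WT. Tapbp rose in DH-LMP2A against WT with a fold change of 1.03 in log2 units (SE 0.144; adjusted p = 0.00205 by edgeR), and it fell in kFRA against DH-LMP2A, with a log2 fold change of -0.87 (SE 0.143, adjusted p = 0.00785). Between kFRA and WT the difference of 0.16 (SE 0.142) missed the threshold (edgeR adjusted p = 0.438). The first call was made in all 9 fits that left out 1 library. The second was lost without DH-LMP2A replicate 1 (edgeR adjusted p = 0.0766) and without kFRA replicate 1 (0.0577). It was also lost with the B cell markers as a covariate (edgeR adjusted p = 0.127), where the calls over all genes in that comparison fell from 713 to 234. Zbtb22, whose exons overlap those of Tapbp on the same strand, was at 16.2 to 24.2 CPM in all libraries.

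B2m (chr2:122147686-122153083), the light chain that all class I molecules share, measured 2351, 1721 and 2169 CPM in WT, 3302, 2870 and 3200 in DH-LMP2A and 2437, 2271 and 2101 in kFRA. The 3 DH-LMP2A libraries were above the 6 others, while WT and kFRA overlapped. The DH-LMP2A mean was 1.5 times that of WT, with a log2 fold change of 0.59 (SE 0.195) that did not pass (edgeR adjusted p = 0.0851). The log2 fold change of -0.46 (SE 0.195) in kFRA against DH-LMP2A did not pass either (edgeR adjusted p = 0.205). The DESeq2 Wald test called B2m in DH-LMP2A against WT (log2 fold change 0.60, adjusted p = 0.00193). Over the 9 libraries Pearson's r of log2 CPM was 0.90 between B2m and Tapbp, and between -0.81 and -0.37 for Tapbp with the 5 proteasome genes. DH-LMP2A had the highest mean of the 3 genotypes for Tapbp and B2m and the lowest for Psmb8, Psmb9, Psmb10, Psme1 and Psme2.

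Of the class I heavy chains, the partners of B2m, H2-K1 and H2-D1 were higher in DH-LMP2A, as Tapbp was. H2-K1 measured 2327, 1847 and 2686 CPM in WT, 6817, 6073 and 6666 in DH-LMP2A and 2846, 2777 and 3294 in kFRA, with a log2 fold change of 1.51 in DH-LMP2A against WT (SE 0.219, edgeR adjusted p = 0.00244). H2-D1 rose by 1.28 in the same comparison (SE 0.199, edgeR adjusted p = 0.00338), and both fell in kFRA against DH-LMP2A, each with a log2 fold change of -1.13 (adjusted p = 0.0177 and 0.0111). Of 11 class I and class I-like heavy chain genes tested, 6 were higher and 1 (H2-Q7) lower in DH-LMP2A against WT, 3 higher in kFRA against WT, and 1 higher (H2-Q7) and 5 lower in kFRA against DH-LMP2A. The count of 5 went to 0 without any 1 DH-LMP2A library or kFRA replicate 1 or with the B cell marker covariate, and to 2 without kFRA replicate 3. The 3 calls in kFRA against WT went to 0 without kFRA replicate 1 or WT replicate 2 and to 1 without kFRA replicate 3, DH-LMP2A replicate 1, WT replicate 1 or WT replicate 3, and the lower call of H2-Q7 in DH-LMP2A against WT was lost without any 1 DH-LMP2A library, WT replicate 1 or WT replicate 3.

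Of 8 other loading and trimming genes, 3 were higher in DH-LMP2A against WT: Erap1, an aminopeptidase that trims peptides in the endoplasmic reticulum, Tapbpl, a tapasin relative that edits peptides, and Pdia3, the oxidoreductase bound to tapasin. Erap1 measured 71.5, 70.4 and 66.7 CPM in WT, 147, 110.1 and 114 in DH-LMP2A and 57.9, 81.8 and 48.1 in kFRA. It rose by 0.83 on the log2 scale in DH-LMP2A against WT (edgeR adjusted p = 0.0248) and fell by 0.98 in kFRA against DH-LMP2A (adjusted p = 0.0230). Tapbpl rose by 0.73 (edgeR adjusted p = 0.0374) and Pdia3 by 0.68 (adjusted p = 0.0347). In kFRA against WT, Pdia3 (0.64, edgeR adjusted p = 0.0345) and Hspa5, the chaperone BiP (0.89, adjusted p = 0.0482), were higher. These counts rest on single libraries: the 3 calls in DH-LMP2A against WT went to 0 without DH-LMP2A replicate 1, WT replicate 1 or WT replicate 2, to 1 without DH-LMP2A replicate 3 and to 5 without kFRA replicate 2, and Erap1 was lost there also without WT replicate 3 and Pdia3 without DH-LMP2A replicate 2 or kFRA replicate 1. The 2 calls in kFRA against WT went to 0 without kFRA replicates 1 or 3 or WT replicates 1 or 2, to 1 (Pdia3) without any 1 DH-LMP2A library and to 4 without kFRA replicate 2, and the Erap1 call in kFRA against DH-LMP2A was lost without DH-LMP2A replicate 1, kFRA replicate 1 or kFRA replicate 3.

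The windows before the start sites of B2m, H2-K1, H2-D1 and Tapbp are shown because the 4 genes were at their highest in DH-LMP2A and because NLRC5 acts at class I promoters. Each is the 250 bases before the start, from RefSeq (GRCm38.p6): B2m at chr2:122147437-122147686 (plus strand), H2-K1 at chr17:34000334-34000583 (minus strand), H2-D1 at chr17:35262844-35263093 (plus strand) and Tapbp at chr17:33919228-33919477 (plus strand). Capitals mark the half-site TGACG and the NF-Y letters CCAAT, along with the interferon response letters GAAANNGAAA and the gamma-activated letters TTCNNNGAA, each searched on both strands, with N standing for any base and overlapping matches merged.

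B2m: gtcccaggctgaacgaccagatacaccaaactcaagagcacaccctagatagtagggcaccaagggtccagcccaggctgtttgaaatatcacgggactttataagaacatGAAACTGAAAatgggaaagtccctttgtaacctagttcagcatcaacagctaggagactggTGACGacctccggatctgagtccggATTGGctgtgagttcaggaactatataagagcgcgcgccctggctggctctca

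H2-K1: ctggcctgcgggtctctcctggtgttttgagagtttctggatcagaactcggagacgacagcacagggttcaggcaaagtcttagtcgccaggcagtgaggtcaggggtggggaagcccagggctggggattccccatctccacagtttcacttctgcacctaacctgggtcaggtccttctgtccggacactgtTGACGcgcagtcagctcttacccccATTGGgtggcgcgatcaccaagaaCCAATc

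H2-D1: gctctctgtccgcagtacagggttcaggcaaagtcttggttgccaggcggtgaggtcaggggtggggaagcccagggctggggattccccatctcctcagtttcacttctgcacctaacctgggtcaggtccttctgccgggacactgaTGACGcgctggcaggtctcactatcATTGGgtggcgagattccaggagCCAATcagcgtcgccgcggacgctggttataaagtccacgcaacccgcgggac

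Tapbp: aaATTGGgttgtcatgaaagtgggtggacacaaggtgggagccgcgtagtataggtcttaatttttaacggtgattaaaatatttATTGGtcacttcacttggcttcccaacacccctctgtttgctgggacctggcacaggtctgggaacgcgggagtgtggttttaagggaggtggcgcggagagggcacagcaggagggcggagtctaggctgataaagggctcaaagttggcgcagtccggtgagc

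In B2m, H2-K1 and H2-D1, the half-site TGACG was followed, after 20 other bases, by ATTGG, which reads as CCAAT on the other strand, at positions -78 to -49, -55 to -26 and -101 to -72 from the start. That spaced pair stood in 31 of 32851 promoter windows of the same length (0.0944%), counting bases to 50 after the start. The spacing was chosen after the positions had been seen. Single motifs were common: CCAAT stood in 37.4% of all windows, TGACG in 20.8%, TTCNNNGAA in 8.3% and GAAANNGAAA in 3.44%. Promoter windows were found for 8 of the 10 genes, all but Tap2 and Nlrc5, and B2m was the 1 of them with the spaced pair. GAAANNGAAA stood in B2m at -139 to -130 and in Psme1 at 10 to 19 bases after the start, and TTCNNNGAA in Psmb8 at -97 to -89. The Tapbp window held CCAAT at -248 to -244 and -165 to -161, both on the other strand, and no spaced pair. The match of letters is a description of these windows.

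Psmb8, Psmb9, Tap1, Tap2 and Tapbp, 5 of the 10 genes, lie within the MHC, between 33915899 and 37483552 on chromosome 17. In that span 148 genes were tested, of which 24.3% passed in kFRA against WT, 23% in DH-LMP2A against WT and 19.6% in kFRA against DH-LMP2A. Over all genes the shares were 17.8%, 12.4% and 5.02% in the same order. Some genes there set DH-LMP2A apart by far more than Tapbp did. Gm10499 measured 250.2, 221 and 265 CPM in the DH-LMP2A libraries and 1.13 to 1.77 in the 6 others, and H2-Q1 167 to 174 against 11.1 to 16.1. Gm11127 (63.2 to 72.5 CPM in DH-LMP2A) was at 1.16 CPM or less elsewhere, 1 WT library having 0. These belong to a family with similar copies and their counts are uncertain. H2-T10 set kFRA apart, with a mean of 99.8 CPM against 37.9 in WT and 40.5 in DH-LMP2A. On a mixed background, a difference in MHC alleles between the mice and a difference in transcript level cannot be told apart in these counts. This touches all genes of the span in all 3 comparisons: Tapbp, H2-K1 and H2-D1, and also Psmb8, Psmb9, Tap1, Tap2 and the class II genes. Within 150000 bases of Tapbp, 2 of 16 other tested genes passed in DH-LMP2A against WT, H2-K1 and H2-K2, against 12.4% of all genes. Nothing particular to that stretch is read from this count. B2m and Nlrc5 lie on other chromosomes, where the mixed background holds too, and allele differences there were not tested.

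**Figure D4:**
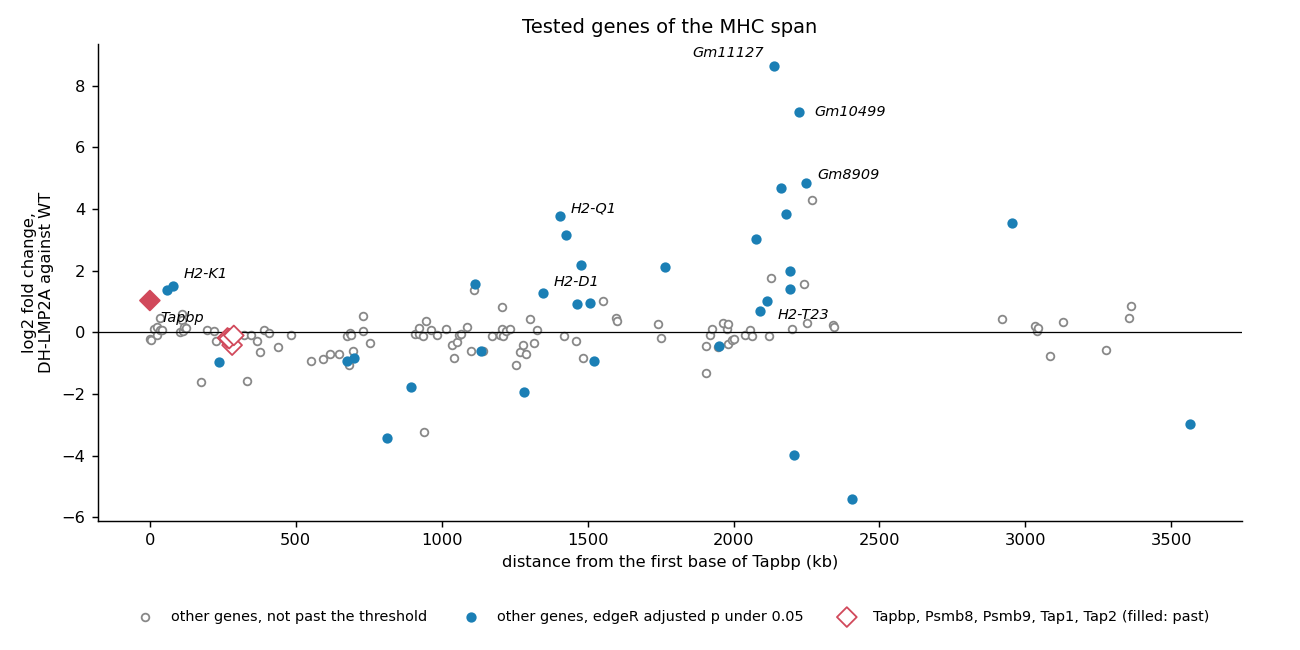
The log2 fold change in DH-LMP2A against WT (vertical axis) of the 148 tested genes of the MHC span is plotted against the distance from the first base of Tapbp in kilobases, with filled points past the adjusted p-value of 0.05. Tapbp lies at 1.03, and the open diamonds of Psmb8, Psmb9, Tap1 and Tap2 lie between -0.42 and -0.10.

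Psmb8, Psmb9, Tap1 and Tap2 lie among class II genes, whose products present peptides to helper T cells. Of 9 neighbours from a list that holds class II genes and Brd2, a chromatin reader, 6 were lower in kFRA against WT (median log2 fold change -0.86), 1 was lower in DH-LMP2A against WT (H2-DMb1, median -0.09) and 3 were lower in kFRA against DH-LMP2A (median -0.64), with none higher. H2-Eb1, a class II chain, measured 412, 553 and 564 CPM in WT, 424, 561 and 635 in DH-LMP2A and 256, 279 and 294 in kFRA. All 3 kFRA libraries lay below the 6 others, and it fell in kFRA by 0.88 against WT (edgeR adjusted p = 0.0151) and by 0.97 against DH-LMP2A (adjusted p = 0.0229). H2-Eb2, a class II gene of the same stretch outside that list, fell by 1.65 in kFRA against WT (edgeR adjusted p = 0.000729). The limit on MHC alleles given above holds for these class II genes too. Of 8 B cell markers, 4 were lower in kFRA against WT (median -0.98) and 2 in kFRA against DH-LMP2A (median -0.81). With these markers as a covariate no class II gene was called in either. That covariate also cut the calls over all genes, from 2523 to 368 in kFRA against WT and from 713 to 234 in kFRA against DH-LMP2A. The part of B cells in the class II values was not tested. Without kFRA replicate 1 or WT replicate 2 the count of 6 was 3, and without DH-LMP2A replicates 2 or 3 or kFRA replicates 1 or 3 the count of 3 in kFRA against DH-LMP2A was 1.

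Nlrc5 (chr8:94472763-94527272), the class I transactivator, measured 169, 96.6 and 113 CPM in WT, 61.1, 75.6 and 51.5 in DH-LMP2A and 61.5, 89.2 and 60.7 in kFRA. The 3 WT libraries were above the 6 others, with WT replicate 1 the highest, and DH-LMP2A and kFRA overlapped. Nlrc5 fell in DH-LMP2A against WT, with a log2 fold change of -1.01 (SE 0.248; adjusted p = 0.0283 by edgeR), and in kFRA against WT, with -0.84 (SE 0.248, adjusted p = 0.0448). kFRA against DH-LMP2A gave 0.17 (SE 0.247, edgeR adjusted p = 0.72). Both calls were close to the threshold: that in kFRA against WT was made in 3 and that in DH-LMP2A against WT in 6 of the 9 fits without 1 library. Without WT replicate 1 the log2 fold changes were -0.57 (edgeR adjusted p = 0.14) and -0.74 (adjusted p = 0.0845) in kFRA and DH-LMP2A against WT. The call in kFRA against WT was also lost without WT replicate 3, DH-LMP2A replicates 1 or 2 and kFRA replicates 1 or 3, and that in DH-LMP2A against WT without DH-LMP2A replicates 1 or 3. Within 150000 bases of Nlrc5, 2 of 7 other tested genes passed in both comparisons with WT, each as lower. They were Cpne2 (-2.08 in kFRA, -1.71 in DH-LMP2A) and 9330175E14Rik (-1.66 and -1.37). Over all genes 17.8% and 12.4% passed in the same order. Exons of 9330175E14Rik, at 3.85 CPM or less, overlap those of Nlrc5 on the opposite strand.

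The macrophage and monocyte markers moved with Nlrc5: their sums were 6394, 4654 and 3638 CPM in WT and 3448 or less in the 6 other libraries, and WT replicate 1 was highest in both. Dendritic cell markers summed to 140 to 205 CPM in WT, 65.8 to 103 in DH-LMP2A and 115 to 149 in kFRA, with Clec9a and Cd209a at 0 in some libraries. Bst2 alone gave 79.0 to 113 CPM of the WT sums. Of the 7 tested, 2 had positive and 5 negative log2 fold changes in each comparison with WT. In kFRA against WT, Siglech passed as higher (3.03, edgeR adjusted p = 0.00156) and Clec9a as lower. Itgax and Bst2 passed as lower in DH-LMP2A against WT. The erythroid sums given above were lower in WT than in DH-LMP2A and kFRA. Granulocyte sums were highest in WT, but DH-LMP2A reached 244 CPM against a WT minimum of 249.3. By gene, the 7 tested granulocyte markers went both ways in DH-LMP2A against WT. There 4 had positive and 3 negative log2 fold changes (median 0.34), and Mpo passed as higher (2.05, edgeR adjusted p = 0.0311). The part of these cells in the Nlrc5 result was not tested. With the B cell markers as a covariate, Nlrc5 was at -1.05 in kFRA against WT (edgeR adjusted p = 0.438) and -1.10 in DH-LMP2A against WT (adjusted p = 0.0747), neither past the threshold. That covariate cut the calls over all genes from 2523 to 368 and from 1756 to 1096 in the same order. With libraries scaled by total counts alone Nlrc5 was at -0.62 and -0.68 (edgeR adjusted p = 0.243 and 0.187), and with only the 6 libraries compared at -0.80 in kFRA against WT (adjusted p = 0.0701).

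Nlrc5 is known to drive class I genes. Of Psmb9, Tap1, B2m, H2-K1 and H2-D1, none passed the threshold as lower in either comparison with WT. The log2 fold changes in kFRA and DH-LMP2A against WT were -0.10 and -0.20 for Tap1 and 0.30 and -0.18 for Psmb9. H2-K1 and H2-D1 passed as higher in DH-LMP2A, where MHC alleles and transcript level cannot be told apart. The part of Nlrc5 in the levels of these genes was not tested.

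Interferon gamma signalling was followed through 11 genes, from receptor chains to IRF factors. Of the 11, 6 were lower and none higher in kFRA against WT (median log2 fold change -0.66), and 5 lower and none higher in DH-LMP2A against WT (median -0.73). None of the 11 passed in kFRA against DH-LMP2A by edgeR, while the DESeq2 Wald test called 2 lower there. Irf8, a transcription factor that interferon gamma induces, measured 165, 150.4 and 121 CPM in WT, 48.4, 72.2 and 56.5 in DH-LMP2A and 57.9, 83.3 and 67.1 in kFRA. Every WT library lay above the 6 others, as for Nlrc5. The sums of the macrophage and monocyte markers had the same order, while some single markers overlapped between WT and the others. All 8 had negative log2 fold changes in both comparisons with WT (medians -0.80 in kFRA and -1.12 in DH-LMP2A). Of the 8, 2 passed in kFRA (Itgam and Lyz2) and 1 in DH-LMP2A (Lyz2). The part of these markers' cells in the values of the interferon and GTPase genes was not tested. Irf8 fell by 1.30 in DH-LMP2A and by 1.07 in kFRA against WT on the log2 scale (edgeR adjusted p = 0.00322 and 0.00694). The receptor chain Ifngr2 fell by 0.85 and 0.87 in the same order (edgeR adjusted p = 0.00375 and 0.00291). Irf9 fell by 0.75 and 0.66 (edgeR adjusted p = 0.00958 and 0.0142). Irf1, which drives immunoproteasome genes, measured 65.4 to 125 CPM over the 9 libraries and did not pass, at -0.52 (adjusted p = 0.0657) in DH-LMP2A and -0.22 (0.343) in kFRA against WT. The count of 6 in kFRA against WT was 2 without kFRA replicate 1, 3 without kFRA replicate 3 or WT replicate 1, and 4 without WT replicate 2. It was 0 with libraries scaled by total counts alone. It was also 0 with the B cell marker covariate, which cut the calls over all genes there from 2523 to 368. The count of 5 in DH-LMP2A against WT was 1 with total counts alone. Irf9 was lost in kFRA against WT without kFRA replicate 1.

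Of 12 tested guanylate-binding and immunity-related GTPase genes, a class that interferon gamma induces, 3 were lower in kFRA against WT (Gbp2, Gbp6 and Irgm2) and 2 in DH-LMP2A against WT (Irgm2 and Igtp). Irgm2 fell by 0.999 in kFRA and by 1.14 in DH-LMP2A on the log2 scale (edgeR adjusted p = 0.00668 and 0.00419). The count of 3 was 1 (Irgm2) in each fit without kFRA replicate 1, kFRA replicate 3, DH-LMP2A replicate 1, WT replicate 1 or WT replicate 3. Ciita, the class II counterpart of NLRC5, measured 31.3, 64.6 and 35.6 CPM in WT and 4.52 to 15.4 in the 6 other libraries. It fell by 2.34 in kFRA and by 1.90 in DH-LMP2A against WT (edgeR adjusted p = 0.0121 and 0.031). The DH-LMP2A call of Ciita was lost without DH-LMP2A replicates 1 or 2 or WT replicates 2 or 3. It was the 1 gene to pass among 8 tested RFX, NF-Y and related factors.

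**Figure D5:**
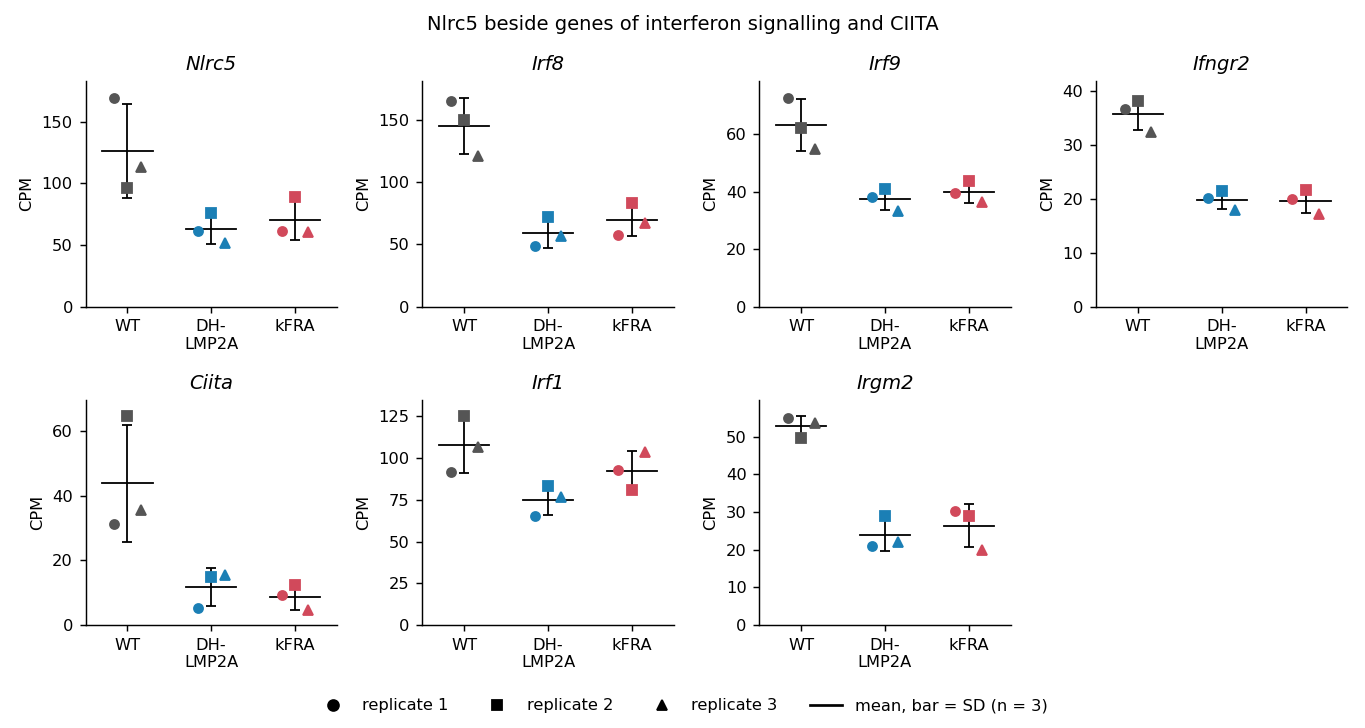
The level in CPM (vertical axes, from 0) of Nlrc5, Irf8, Irf9, Ifngr2, Ciita, Irf1 and Irgm2 is plotted per library, with the mean as a line and the SD as a bar (n = 3 per genotype). All but Irf1 have their 3 WT libraries above the 6 others, as in Irf8, with 121 to 165 CPM in WT and 48.4 to 83.3 in the others.

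Among 9622 genes with a mean of at least 5 CPM, the pattern of the mean log2 CPM of the 10 genes over the 9 libraries was most like that of Rnf4 (Pearson's r = 0.946), H2-T22 (0.939), Mrpl45 (0.928), Ap1s1 (0.924) and Slmo2 (0.923). In a search added after their values had been seen, genes among the 5 most like Nlrc5 were Lrp8 (0.978), Gbp6 (0.975), P2ry14 (0.973) and Aim2 (0.970). Those most like Tapbp were Ctsz (0.991), Gm15772 (0.988), H2-D1 (0.987), Gm8909 (0.987) and Rpl30-ps9 (0.987). The points of these correlations share libraries, scaling and genotype differences.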

How the data were processed

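RNA of 9 libraries was measured, 3 per genotype, 1 mouse each. The authors deposited raw read counts per gene, not normalized, together with merged exon lengths and coordinates in bases, per the file headers. Per the submitters' processing notes, STAR 2.4.0a, featureCounts from Subread 1.5.0-p3, DESeq2 and the mouse build mm10 (GRCm38) were used. The strand setting and the treatment of reads mapping to several places are not given in the sources used here, so genes that overlap others or have similar copies are uncertain. Genotypes and replicate numbers were taken from the labels. All 9 count columns were used, and none was left over.

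Counts were filtered with edgeR's filterByExpr within groups, scaled with TMM (trimmed mean of M values) and fitted with edgeR 4.0.16 (R 4.3.3) in 1 quasi-likelihood model of all 9 libraries. The 3 pairwise contrasts were tested 2-sided, p-values were adjusted by Benjamini-Hochberg over 14199 genes, and 0.05 was the threshold. SEs of log2 fold changes were derived from the F statistic (the absolute fold change over the root of F). P-values set a difference between genotypes against the spread between mice within genotypes, 3 mice each. That spread was estimated from all 9 libraries, with information shared across genes. The fits were tested on simulated data before use. Replicates of a genotype differed by more than counting noise in every pair (chi-square over its degrees of freedom 17.3 to 164). Subunit ratios were compared by exact permutation tests, with Python 3.11.15 and scipy 1.17.1. Start sites and promoter sequences came from RefSeq (GRCm38.p6), and overlaps from GENCODE M21.

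The alternatives were DESeq2's size factors, total counts alone, no filter, a mean of at least 5 CPM, no immunoglobulin genes, the replicate block, a B cell marker covariate, only the 6 libraries compared, DESeq2 1.42.0, an adjusted p under 0.01 and leaving out each library. Counts of the gene lists under these settings were added after seeing the data. The 10 genes and the gene lists were chosen with earlier results of these data known. The 10 genes were named in any case, and from every other list at most the 4 genes with the smallest p-value among those past the threshold, plus Psmb5, Psmb6, Psmb7, Ciita, Irf1, H2-K1 and H2-D1. 1 further gene of that rule is not reported here. In the MHC, genes among the 4 smallest p-values of a comparison are named. H2-Q7, H2-K2, Zbtb22, Cpne2, 9330175E14Rik, Psmg1, Psmg2, Psmg3 and Pomp were named after their values were seen.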

Additional observations from a re-analysis of the deposited data

How the results depend on the processing

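Of the 10 genes, the count past the threshold in kFRA against WT (1) was 0 with the B cell marker covariate, with only the 6 libraries compared and at an adjusted p under 0.01. In DH-LMP2A against WT (2) it was 1 with the covariate, 4 with DESeq2's Wald test and 1 at an adjusted p under 0.01. In kFRA against DH-LMP2A (1) it was 0 with the covariate and 2 with the Wald test. Leaving out 1 library gave 0 to 2, 1 to 4 and 0 to 6 in the same order. The cause was not tested. With the replicate block the counts were 1, 2 and 1. Same-numbered libraries, which are different mice, deviated together in no consistent way (correlations from -0.21 to 0.20). Over all genes, the B cell marker covariate cut the calls from 2523 to 368 in kFRA against WT and from 1756 to 1096 in DH-LMP2A against WT. In kFRA against DH-LMP2A it cut them from 713 to 234.

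Signs turned only where the log2 fold change was small. In kFRA against WT, Psmb10 was at 0.0051 with DESeq2's size factors, 0.15 with total counts alone, 0.019 without immunoglobulin genes, 0.0047 with the Wald test and 0.016 with only 6 libraries. With the B cell covariate, Psmb8 was at -0.28, Psme1 at -0.040, Psme2 at -0.29 and Tap2 at -0.047. With total counts alone Tap1 was at 0.10, and in DH-LMP2A against WT Psmb9 and Psme2 were each at 0.17, Tap1 at 0.14 and Tap2 at 0.26, while Tap1 was at -0.038 in kFRA against DH-LMP2A. That scaling moved the median of all genes to 0.17, 0.33 and -0.14 in kFRA against WT, DH-LMP2A against WT and kFRA against DH-LMP2A, and the share of higher calls from 37.6% to 72.0%, from 41.0% to 79.9% and from 34.4% to 26.0%. Without 1 library, kFRA against WT ranged from -0.15 to 0.19 for Psmb10, -0.077 to 0.22 for Psme1 and -0.027 to 0.24 for Psme2, and Tap2 in DH-LMP2A against WT from -0.20 to 0.10. With 3 mice a genotype and SEs of 0.141 to 0.248, changes of that size are not resolved. Larger ones also missed the threshold, such as 0.59 for B2m in DH-LMP2A against WT (edgeR adjusted p = 0.0851) and 0.57 for Psmb8 in kFRA against DH-LMP2A (adjusted p = 0.192).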
